A study of Homo sapiens with 8 samples.

Results

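Metallothioneins are small, cysteine-rich proteins of the cytosol and nucleus that bind zinc, copper and cadmium. Their genes, and the gene of the plasma-membrane zinc exporter SLC30A1 (ZnT1), carry metal response elements, short DNA motifs bound by the zinc-sensing transcription factor MTF1 when free zinc is high. In the other direction, SLC39A8 (ZIP8) and SLC39A14 (ZIP14) bring zinc into the cytosol and can also carry iron, manganese and cadmium. Metallothionein genes also answer to glucocorticoids, oxidative stress and inflammatory cytokines, and SLC39A14 is known as an inflammation-responsive importer in the liver.

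The set described here holds 9 genes of the 27696 in the table. They are the metallothioneins MT1E, MT1L, MT1M, MT1X and MT2A, the regulator MTF1, the exporter SLC30A1 and the importers SLC39A8 and SLC39A14. Members were chosen by name, as the rows whose symbol is one of these 9. The question asked of them is whether the exporter and the importers move together with the metallothioneins.

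RNA came from IMR90 cells, human lung fibroblasts, that had been kept for 3 days in medium taken from other cultures. The donor cultures were IMR90-ER:RAS fibroblasts, in which 4-OHT switches on an oncogenic RAS fused to an estrogen receptor domain and so starts oncogene-induced senescence. Medium was taken at day 0, 4, 7 or 10 of 4-OHT, and the recipient groups are called D0, D4, D7 and D10 after it, so that all groups received medium from cells carrying ER:RAS and D0 serves as the control. Recipients carry no label of a transgene, each group has 2 libraries from 2 independent experiments, and all come from the 1 IMR90 line.

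The 8 libraries held between 11708193 and 13395912 counts, and replicates within a group differed by more than sampling noise. Expression is given as CPM, counts scaled to the TMM-corrected library size, and groups as the mean ± SD of n = 2. Fibroblast identity was clear, since the 9 fibroblast markers summed to between 10060 and 46796 CPM, while the epithelial markers summed to at most 0.820 CPM and the leukocyte markers to at most 0.552 CPM. PECAM1, CDH5 and VWF, which mark endothelium, summed to at most 3.74 CPM, whereas TEK from the same list was expressed. The D10 library of experiment 2 stood apart, with the lowest fibroblast marker sum (10060 CPM against 30284 or more elsewhere) and the lowest mitochondrial share of counts (1.22% against 2.18% to 3.60%). The experiments themselves differed widely, since 4805 of 13798 tested genes differed between them at an adjusted p under 0.05 in edgeR.

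All 5 metallothioneins lie in one cluster on the plus strand of chromosome 16 (GRCh38, GENCODE release 29), in the order MT2A (chr16:56608199-56609497), MT1L (chr16:56617476-56618818), MT1E (chr16:56625475-56627112), MT1M (chr16:56632233-56633986) and MT1X (chr16:56682424-56684196). MT1L is annotated as a transcribed unprocessed pseudogene and the other 4 as protein coding. Coding sequences are shown because the members are near-copies that short reads must tell apart. Those of MT2A, MT1E and MT1X are joined from the coding exons and hold 183 bases without the stop codon. For MT1L, which has no annotated reading frame, a stretch of its transcript cut to the same length is shown. Capitals mark the bases that differ from MT2A at the same position.
MT2A: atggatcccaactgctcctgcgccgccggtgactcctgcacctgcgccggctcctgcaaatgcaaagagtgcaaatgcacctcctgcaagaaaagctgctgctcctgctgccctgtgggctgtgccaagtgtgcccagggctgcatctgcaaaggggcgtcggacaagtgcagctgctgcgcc
MT1E: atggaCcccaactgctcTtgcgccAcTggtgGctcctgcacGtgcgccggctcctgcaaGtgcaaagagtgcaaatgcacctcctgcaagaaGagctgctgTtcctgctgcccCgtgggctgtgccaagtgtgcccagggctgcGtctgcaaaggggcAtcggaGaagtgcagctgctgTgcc
MT1L: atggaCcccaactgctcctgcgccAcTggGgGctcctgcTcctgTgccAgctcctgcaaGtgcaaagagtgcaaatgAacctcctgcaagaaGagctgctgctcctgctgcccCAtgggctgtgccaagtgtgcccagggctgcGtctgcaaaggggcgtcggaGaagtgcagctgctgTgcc
MT1X: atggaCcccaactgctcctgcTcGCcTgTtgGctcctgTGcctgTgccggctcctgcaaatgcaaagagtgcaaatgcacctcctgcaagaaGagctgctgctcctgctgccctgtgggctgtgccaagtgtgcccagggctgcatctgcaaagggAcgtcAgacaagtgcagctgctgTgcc

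Identity with MT2A was 92.4% for MT1E (14 differing bases), 91.3% for MT1L (16 bases) and 92.4% for MT1X (14 bases). The MT1L stretch is the part of its transcript that aligned without a gap to the MT1E coding sequence, with which it shares 94.5% of its bases, and read in that frame it meets a stop at codon 26. Across the whole transcripts, untranslated parts included, the overlap was measured in 50-base words. Of these, 3.02% in MT2A, 4.42% in MT1L, 7.10% in MT1E, 9.87% in MT1M and 18.3% in MT1X also occurred in another annotated gene. Most of the MT1X share came from a readthrough gene, AC026461.1, which held 14.6% of the words of MT1X. The words were pooled over all annotated transcripts and not weighted by expression, so they do not give the share of reads that could be confused. How reads that match several genes were counted is not given in the sources used here, and counts of MT1M and MT1X in particular could include or lose such reads.

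The sequence before the start site was searched for the core of the metal response element, spelled TGCACNC or TGCGCNC, on both strands. The 250 bases before the RefSeq start (GRCh38.p14) were used, and promoters were given for MT2A, MT1X, MTF1, SLC30A1 and SLC39A8. MT2A held 7 separate matches, MT1X 4, SLC30A1 1 and MTF1 0. The RefSeq start used for SLC30A1 lies upstream of its GENCODE start (chr1:211578742), and the bases between the 2 starts were not searched. SLC39A8 has 3 RefSeq starts in the table, of which 1 window held 1 match and the others 0. Among 35116 promoters of all genes, 24.8% held at least 1 match, 0.208% at least 4 and 0.0228% at least 7. The 7 matches of MT2A are shown in gene orientation with their neighbouring bases, the match in capitals, from chr16:56608334-56608351 for the first to chr16:56608569-56608583 for the last. The same stretch is exonic in a longer MT2A transcript of GENCODE.
MT2A site 1: ccgcTGCACCCagcccct
MT2A site 2: gcggcccGTGTGCAgagccgg
MT2A site 3: agccgggTGCGCCCggcccag
MT2A site 4: ggcccagTGCGCGCggccggg
MT2A site 5: gcggggcGTGTGCAggcagcg
MT2A site 6: gggctttTGCACTCgtcccgg
MT2A site 7: gccgcgcTGCACTCc

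For comparison, the upstream stretches of MT1X (chr16:56682220-56682423, plus strand, up to its GENCODE start) and of the exporter SLC30A1 (chr1:211579162-211579411, minus strand) are shown with their matches in capitals. The first belongs to a metallothionein with several matches and the second to the exporter with 1.
MT1X upstream: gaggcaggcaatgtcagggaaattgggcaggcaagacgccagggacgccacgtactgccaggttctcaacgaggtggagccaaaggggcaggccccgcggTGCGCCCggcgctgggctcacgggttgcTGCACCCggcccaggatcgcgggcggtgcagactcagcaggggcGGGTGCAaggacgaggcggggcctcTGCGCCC
SLC30A1 upstream: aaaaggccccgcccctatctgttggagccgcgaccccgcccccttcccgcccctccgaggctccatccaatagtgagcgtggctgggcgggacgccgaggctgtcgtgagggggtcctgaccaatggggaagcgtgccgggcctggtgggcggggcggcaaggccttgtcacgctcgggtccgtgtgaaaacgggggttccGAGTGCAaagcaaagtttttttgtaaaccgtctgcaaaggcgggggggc

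A match is a description of letters and was not tied to binding in these data. The single SLC30A1 match began 49 bases before the start and lay on the opposite strand, whereas the MT2A matches were spread from 246 to 8 bases before the start, with 5 on the strand of the gene and 2 on the other.

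**Figure D1:**
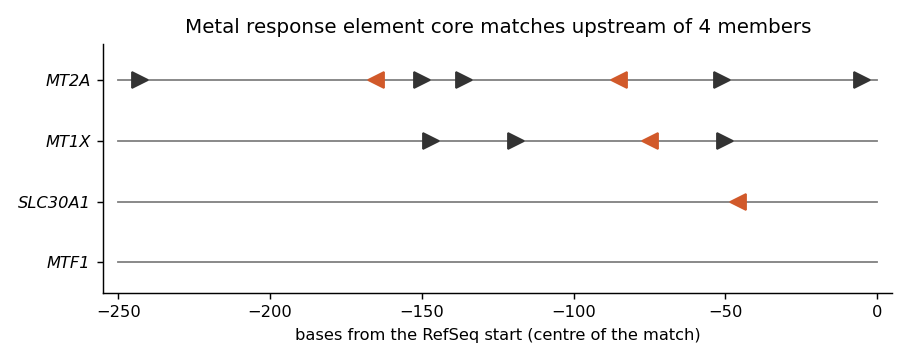
Position of each match to the metal response element core (triangles, pointing right on the strand of the gene and left on the other) in the 250 bases before the RefSeq start of MT2A, MT1X, SLC30A1 and MTF1. MT2A holds 7 matches, MT1X 4, SLC30A1 1 and MTF1 0.

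The 4 metallothioneins with measurable RNA were higher under senescent medium than under D0 medium in both experiments and at every day. MT2A, the most abundant metallothionein in these cells, stood at 281 ± 139 CPM under D0 medium and at 1523 ± 16.4 CPM under D10 medium, 5.41-fold higher in the edgeR fit. MT1E went from 33.9 ± 6.12 to 116 ± 24.3 CPM, MT1L from 2.97 ± 1.01 to 21.5 ± 0.448 CPM, and MT1X from 2.16 ± 0.380 to 5.02 ± 1.27 CPM. MT1M was at or below 1 count in each library. In the main test, fitted without the experiment, 1 of the 7 members that passed the filter on low counts was called, MT1L at D10, while the background was 0.196% of 13798 genes called higher. With the experiment as a block, MT2A, MT1E and MT1L were called at both D7 and D10.

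MT2A was at 380 and 183 CPM at D0 in experiments 1 and 2. It reached 984 and 646 CPM at D4, 895 and 944 CPM at D7, and 1535 and 1511 CPM at D10. Both D0 libraries were thus below all 6 others and both D10 libraries above them, and the experiments, which were 2.08-fold apart at D0, met at D10. The log2 fold change of MT2A was 1.53 ± 0.39 (SE) for D4, 1.71 ± 0.39 for D7 and 2.44 ± 0.40 for D10, and edgeR gave adjusted p of 0.893, 0.366 and 0.0656. Once the experiment was blocked it was 0.0788, 0.0298 and 0.00277. Within experiment 1 the D10 level was 4.04 times the D0 level, and within experiment 2 it was 8.27 times. The size rested on the D0 libraries: without D0 replicate 2 and without D0 replicate 1 the log2 fold change was 1.10 and 2.16 for D4, 1.27 and 2.33 for D7, and 2.0 and 3.06 for D10.

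MT1E was at 38.2 and 29.6 CPM at D0, 85.9 and 92.4 CPM at D4, 82.6 and 120 CPM at D7, and 134 and 99.2 CPM at D10. The D0 libraries lay below all others, and the D7 libraries overlapped those of D4 and of D10, which did not overlap each other. Its log2 fold change was 1.40 ± 0.27 for D4, 1.58 ± 0.28 for D7 and 1.78 ± 0.28 for D10, and edgeR gave adjusted p of 0.757, 0.292 and 0.0550. With the block these were 0.0584, 0.0219 and 0.00439.

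MT1L, the transcribed pseudogene, was at 3.69 and 2.26 CPM at D0, 11.4 and 7.53 CPM at D4, 11.8 and 16.7 CPM at D7, and 21.8 and 21.1 CPM at D10. It was the only member whose CPM was higher at each successive day in both experiments, as 1.33% of tested genes were. Its log2 fold change was 1.67 ± 0.36 for D4, 2.27 ± 0.36 for D7 and 2.85 ± 0.36 for D10. The D10 difference, 7.23-fold with a 95% interval from 4.03 to 13.0, was called with an edgeR adjusted p of 0.0379, and those at D4 (0.757) and D7 (0.292) were not. With the block the adjusted p was 0.0921, 0.0167 and 0.00219. Leaving out any 1 library other than D10 replicate 1 took the D10 call away, with adjusted p between 0.0540 and 0.244 and log2 fold changes between 2.53 and 3.24, and it held without D10 replicate 1 (adjusted p = 0.0358).

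MT1X was at 2.43 and 1.89 CPM at D0, 3.10 and 2.91 CPM at D4, 2.67 and 4.10 CPM at D7, and 4.12 and 5.92 CPM at D10, or between 26 and 75 counts per library. The 6 later libraries again lay above both D0 libraries, with less room than for the other metallothioneins. Its log2 fold change at D10 was 1.21 ± 0.39 (95% interval 0.32 to 2.11) and was not called, with an edgeR adjusted p of 0.339, or 0.0877 with the block. MT1M had 0 counts in both D0 and both D4 libraries, 1 and 0 in those of D7, and 1 in each of D10, under the floor of 3 counts per library, so no fold is given.

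**Figure D2:**
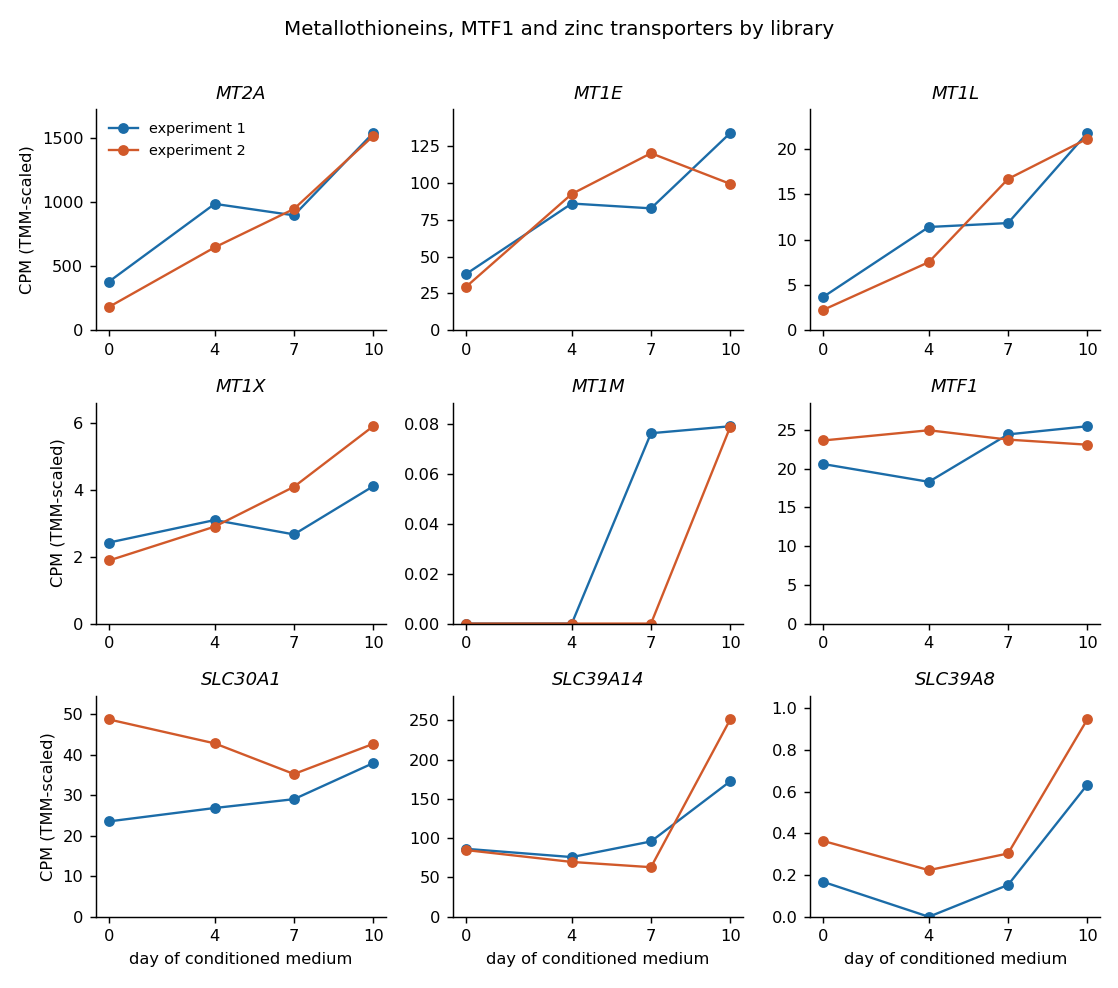
Expression of each member (TMM-scaled CPM, axes from 0, a different scale per panel) against the day of the conditioned medium, with 1 point per library and lines joining the libraries of experiment 1 (blue) and experiment 2 (orange). MT2A, MT1E, MT1L and MT1X lie lowest at D0 in both experiments, SLC39A14 stands above its other values only at D10, and SLC30A1 starts at 23.5 CPM in experiment 1 and 48.7 CPM in experiment 2.

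For all 4 tested metallothioneins every later library lay above both D0 libraries, an order that 3.18% of the 13798 tested genes shared. Both D10 libraries lay above the other 6 for MT2A, MT1L and MT1X but not MT1E, an order found in 5.11% of tested genes. The comparisons of D4, D7 and D10 with D0 share the 2 D0 libraries and are not independent of each other. Summed over the 5 members, metallothionein CPM was 320 ± 147 under D0 medium, 916 ± 237 for D4, 1039 ± 65.9 for D7 and 1666 ± 39.9 for D10, and the D10 mean was 5.20 times the D0 mean.

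MT2A dominated this pool in every library. It gave between 84.4% and 92.3% of the summed metallothionein counts in each library, and MT1E between 6.06% and 13.6%. The MT2A share was lower in experiment 2 than in experiment 1 at D0 (84.4%, exact 95% binomial interval 83.1 to 85.7, against 89.6%, 88.7 to 90.4), at D4 (86.3%, 85.6 to 86.9, against 90.7%, 90.2 to 91.2) and at D7 (87.0%, 86.5 to 87.6, against 90.2%, 89.7 to 90.7). At D10 the order was the opposite, with 92.3% (91.9 to 92.6) in experiment 2 and 90.6% (90.2 to 91.0) in experiment 1. These intervals cover counting error only. In the D10 library of experiment 2, the library that stood apart, MT1E made 6.06% of the pool (5.74 to 6.39) against 7.89% (7.53 to 8.26) in experiment 1.

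Between later days, no metallothionein difference was called by edgeR, with or without the block, or by DESeq2. MT1L was higher at D10 than at D4 by 1.18 ± 0.34 on the log2 scale (adjusted p = 0.498 in edgeR, 0.0661 with the block) and MT2A by 0.90 ± 0.38 (adjusted p = 0.872, and 0.131 with the block). In the comparison of D10 with D7 the log2 differences were 0.73 ± 0.38 for MT2A and 0.20 ± 0.27 for MT1E, both with an edgeR adjusted p of 1.00.

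The number of members called depended on whether the experiment was blocked and on the tool. In edgeR without the block, 0 members were called for D4, 0 for D7 and 1 for D10, where 0.0%, 0.0% and 0.29% of all genes were called in either direction. At an unadjusted p under 0.05 the same fit had 3, 3 and 5 of the 7 tested members, beside 2.96%, 4.34% and 7.94% of all genes. The block called 0, 3 and 4 members, all higher, beside 0.087%, 0.507% and 2.54% of genes called higher. DESeq2 called 3, 3 and 4, beside 0.159%, 0.399% and 1.58% called higher, and its D4 calls were MT1E (adjusted p = 0.00835), MT2A (0.0240) and MT1L (0.0247).

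**Figure D3:**
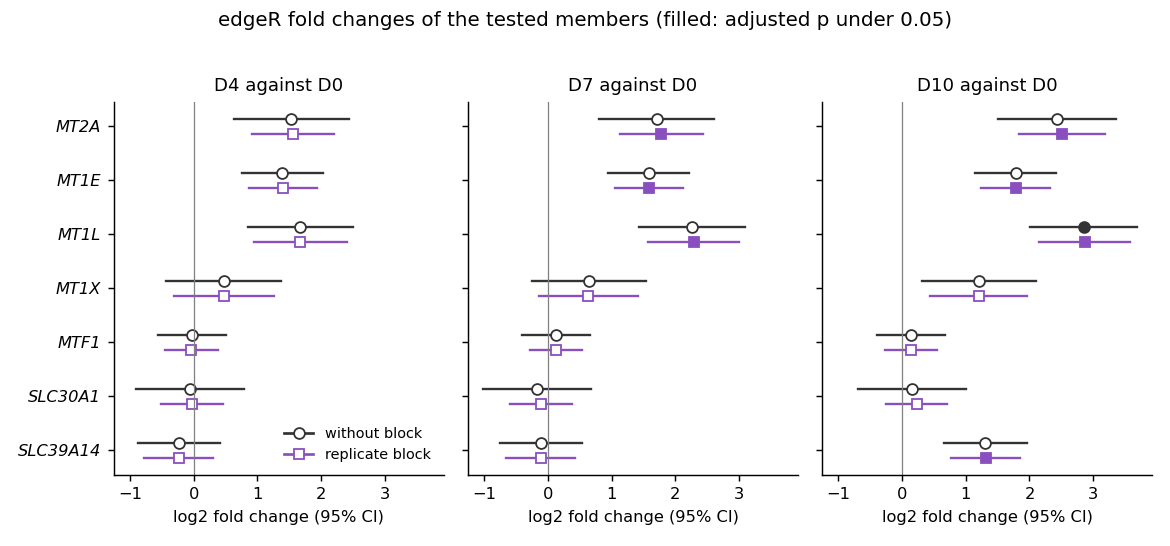
Log2 fold change against D0 of the 7 tested members at D4, D7 and D10 from edgeR without the block (black circles) and with the replicate block (purple squares), with bars for the 95% confidence interval and filled symbols for an adjusted p under 0.05. MT1L at D10 is the only filled black symbol, MT2A, MT1E and MT1L are filled purple at D7 and D10, SLC39A14 is filled purple at D10, and MTF1 and SLC30A1 lie near 0 on all days.

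MTF1, the transcription factor that binds the metal response element, was nearly level. It was at 20.6 and 23.7 CPM at D0, 18.3 and 25.0 CPM at D4, 24.4 and 23.8 CPM at D7, and 25.5 and 23.1 CPM at D10. The groups overlapped, except that both D7 libraries lay just above both D0 libraries. The log2 fold change at D10 was 0.13 ± 0.23, and its 95% interval, from 0.759-fold to 1.59-fold, leaves room for changes within it. The edgeR adjusted p was 0.998. These are RNA levels, and the activity of MTF1, which is set by zinc binding and its place in the cell, was not measured.

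The exporter SLC30A1 showed no common movement with the metallothioneins, and the experiments differed. It was at 23.5 and 48.7 CPM at D0, 26.9 and 42.8 CPM at D4, 29.03 and 35.2 CPM at D7, and 37.9 and 42.7 CPM at D10 in experiments 1 and 2. In experiment 1 its CPM was higher at each successive day, to 1.61 times D0 at D10, while in experiment 2 all later libraries lay below D0, at 0.879, 0.724 and 0.876 times D0 at D4, D7 and D10. The gap between the experiments, 2.07-fold at D0, was larger than any change within an experiment. The edgeR log2 fold change was -0.05 ± 0.37 for D4, -0.17 ± 0.37 for D7 and 0.16 ± 0.37 for D10, the adjusted p being 1, 1 and 0.998.

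At D10 the 95% interval of the SLC30A1 change ran from 0.618-fold to 2.01-fold. The interval of the MT2A change on the same day, 2.84-fold to 10.3-fold, did not overlap it, and the difference between the 2 genes was not itself tested. With the block the SLC30A1 log2 fold change at D10 was 0.23 ± 0.21 (95% interval -0.25 to 0.71, adjusted p = 0.635). SLC30A1 was called higher in experiment 2 than in experiment 1 in the blocked edgeR fit, by 0.54 ± 0.15 on the log2 scale (adjusted p = 0.0248). The difference for MT2A was -0.40 ± 0.20 (adjusted p = 0.151). The same fit called 2571 of 13798 genes higher and 2234 lower in experiment 2, so such a difference was not particular to SLC30A1. Without D0 replicate 2 the D10 change of SLC30A1 was 0.77, and without D0 replicate 1 it was -0.27, so that its direction rested on the D0 libraries.

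The importer SLC39A14 was higher at D10 than under any earlier medium. It was at 86.5 and 84.9 CPM at D0, 76.0 and 69.8 CPM at D4, 95.9 and 63.1 CPM at D7, and 172 and 251 CPM at D10. Both D10 libraries lay above all 6 others, 1.99 and 2.96 times the D0 library of the same experiment. The log2 fold change was -0.23 ± 0.28 for D4, -0.11 ± 0.28 for D7 and 1.31 ± 0.28 for D10, and the last, 2.47-fold with a 95% interval from 1.57 to 3.88, missed the threshold in edgeR (adjusted p = 0.118) and passed it with the block (0.0167) and in DESeq2 (0.00290). SLC39A14 was also the only member that DESeq2 or the blocked fit called between later days. It was higher at D10 than at D4 by 1.54 ± 0.28 (adjusted p = 0.230 in edgeR, 0.0181 with the block, 0.000472 in DESeq2), where 0.00725%, 1.72% and 0.884% of genes were called higher, and higher at D10 than at D7 by 1.41 ± 0.28 (0.720, 0.0661 and 0.00414), where 0.0%, 0.304% and 0.457% were. Without the D10 library of experiment 2 the difference from D0 was 1.01 ± 0.30 with an edgeR adjusted p of 0.478.

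The importer SLC39A8 was barely expressed, with 2 and 5 counts in the D0 libraries, 0 and 3 in D4, 2 and 4 in D7, and 8 and 12 in D10, and it did not pass the filter. Over both experiments the 20 counts at D10 against 7 at D0 gave a depth-corrected ratio of 2.94, with an exact 95% counting interval from 1.19 to 8.23 that leaves out the spread between experiments. At D4 and D7 the ratio was 0.416 (0.0695 to 1.82) and 0.838 (0.233 to 2.91).

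Levels were also taken per kilobase, over the length of all annotated exons of a gene together. That length was 1299 bases for MT2A, 1052 for MT1E and 1773 for MT1X, but 411 for MT1L. The length of the RNA made in these cells was not measured, so ranks between genes depend on the annotation and are approximate. On this scale the order at D0 was MT2A (217 CPM per kb), MT1E (32.2), SLC39A14 (12.3), MT1L (7.23), SLC30A1 (6.60), MTF1 (2.76), MT1X (1.22) and SLC39A8 (0.0410). MT1L and SLC30A1, with SDs of 2.46 and 3.25 CPM per kb, did not differ beyond their spread. At D10 it was MT2A (1173 CPM per kb), MT1E (111), MT1L (52.2), SLC39A14 (30.5), SLC30A1 (7.36), MTF1 (3.03), MT1X (2.83) and SLC39A8 (0.122). MT1L had passed SLC39A14, and MTF1 and MT1X, with SDs of 0.210 and 0.717, did not differ beyond their spread.

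The covariation of the members with MT2A was measured over the 8 libraries on log2 CPM with two-sided exact permutation tests, adjusted over the 8 relations. The 8 libraries come from 2 experiments and may not be fully independent. The permutations shuffled them across days and experiments, so a change with day that both genes share also lowers the p. MT1L followed MT2A most closely (Pearson r = 0.98, permutation p = 0.000174, adjusted 0.00139; Spearman rho = 0.93, p = 0.00223, adjusted 0.00893). MT1E gave r = 0.93 (permutation p = 0.00218, adjusted 0.00873) and rho = 0.83 (p = 0.0154, adjusted 0.0410), and MT1X gave r = 0.87 (permutation p = 0.00503, adjusted 0.0134) and rho = 0.93 (p = 0.00223, adjusted 0.00893). Within experiments 1 and 2, with 4 libraries each, r was 1.00 and 0.99 for MT1L, 1.00 and 0.92 for MT1E, and 0.88 and 0.97 for MT1X. The 2 libraries farthest from the median of MT2A were those of D0, and over the other 6 the r of MT1L was 0.93 (permutation p = 0.00972, adjusted 0.0778), of MT1X 0.77 (p = 0.0875, adjusted 0.233) and of MT1E 0.53 (p = 0.281, adjusted 0.374), so that the adjusted calls rested on D0.

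SLC30A1 gave r = -0.10 with MT2A (permutation p = 0.811, adjusted 0.819) and rho = -0.12 (p = 0.793, adjusted 0.793). Within experiment 1 its r was 0.89 and within experiment 2 it was -0.66, over 4 libraries each, so the experiments went in opposite directions. With the experiment means subtracted r was 0.10, and without the D0 libraries 0.16. SLC39A14 gave r = 0.51 (permutation p = 0.179, adjusted 0.287) and rho = 0.40 (p = 0.327, adjusted 0.523), with 0.63 and 0.47 within the experiments and 0.86 without the D0 libraries (permutation p = 0.0389, adjusted 0.156). SLC39A8 (r = 0.24, rho = 0.31), MTF1 (r = 0.10, rho = 0.17) and MT1M (r = 0.63, rho = 0.71) did not pass either, with adjusted permutation p of 0.756, 0.819 and 0.220 for r, and the values of SLC39A8 and MT1M rest on few counts.

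**Figure D4:**
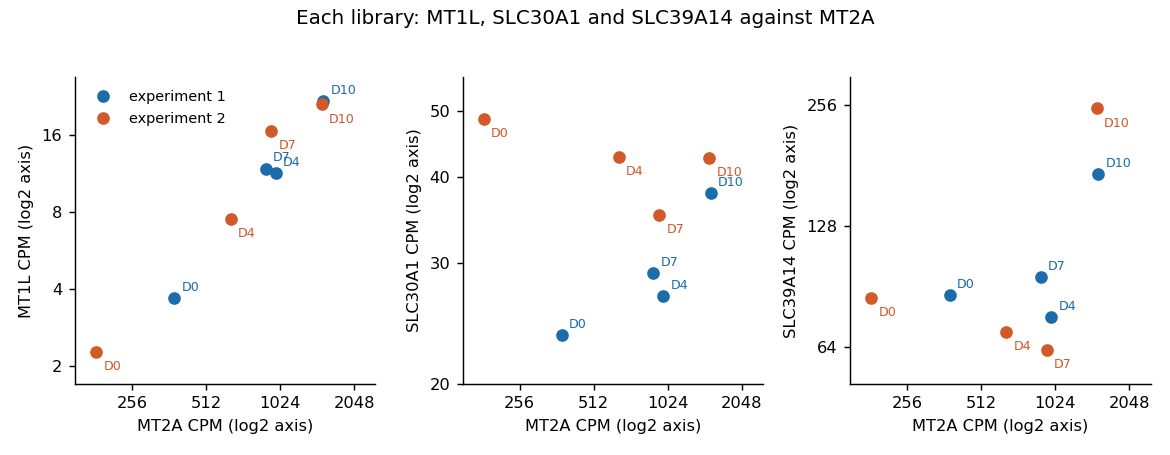
Expression of MT1L, SLC30A1 and SLC39A14 (vertical, CPM, log2 axes) against MT2A (horizontal, CPM, log2 axis), with 1 point per library labelled by group and coloured by experiment. MT1L lies along a line with MT2A (r = 0.98), SLC30A1 climbs with MT2A in experiment 1 and not in experiment 2, and SLC39A14 leaves its level only in the 2 D10 libraries.

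Outside the members, the genes whose log2 CPM over the 8 libraries was most like that of MT2A were PITPNC1 (r = 0.98), CSRNP1 (0.98), BDKRB1 (0.97), UBALD2 (0.97) and DUSP4 (0.97), chosen among 13798 tested genes and given with no test. PITPNC1, which encodes a phosphatidylinositol transfer protein, was at 7.79 and 5.68 CPM at D0 and 19.1 and 22.0 CPM at D10. DUSP4, a phosphatase of MAP kinases, was at 5.45 and 2.91 CPM at D0 and 17.3 and 12.8 CPM at D10. Those most like SLC30A1 were KCTD18 (r = 0.97), PTPN4 (0.96), MRPS25 (0.95), AC016582.3 (0.94) and WDHD1 (0.94). Like SLC30A1, KCTD18 was lower at D0 in experiment 1 (13.8 CPM) than in experiment 2 (20.7 CPM).

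The rest of the metallothionein family was close to silent. Of 16 other metallothionein genes and pseudogenes listed, 9 are in the table, and each had at most 7 counts in any library, the highest being the pseudogene MT2P1. MT1F, MT1G, MT1H and MT1A, which are protein coding, had at most 3, 2, 2 and 1 counts. None passed the filter. The other 7 were not analysed here.

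No other zinc transporter was called in these fits. Of 9 further genes of the SLC30 family, 7 are in the table and 5 were tested. Of these, 0 were called at any day by edgeR, by edgeR with the block or by DESeq2, and 0 had an unadjusted p under 0.05 in any of these fits at D10. Of all 13798 genes, edgeR called 40 at D10, edgeR with the block 688 and DESeq2 390. Those with an unadjusted p under 0.05 there numbered 1095, 2517 and 1078. Lists this short with 0 calls do not stand apart from all genes. The median log2 fold change of the 5 at D10 was 0.03, beside 0.00 for all genes. SLC30A5 (0.17 ± 0.18), SLC30A6 (0.15 ± 0.22) and SLC30A4 (-0.09 ± 0.26) had the smallest p in edgeR at D10, each with an adjusted p of 0.998. Of 12 further SLC39 importers, 10 are in the table, 9 were tested and 0 were called on any day by the same tools, with a median of -0.03 at D10. An unadjusted p under 0.05 was met at D10 against D0 by 0 of them in edgeR and DESeq2. With the block 1 met it, SLC39A11, which was lower, beside 2517 of 13798 genes in either direction. The smallest p belonged to SLC39A11 (-0.39 ± 0.29, edgeR adjusted p = 0.993), SLC39A3 (-0.34 ± 0.34) and SLC39A10 (0.22 ± 0.31), the last 2 with an adjusted p of 0.998.

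**Figure D5:**
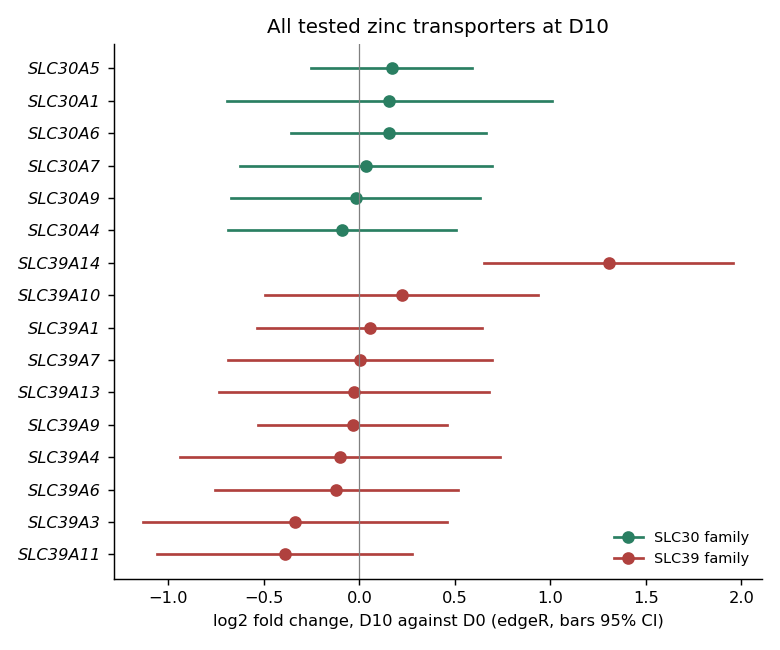
Log2 fold change of D10 against D0 from edgeR without the block for the 6 tested SLC30 genes (green) and the 10 tested SLC39 genes (red), with bars for the 95% confidence interval. SLC39A14, at 1.31, is the only transporter whose interval lies clear of 0.

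Genes of other metals were looked at beside zinc. Of 11 copper genes, 8 were tested and 0 were called by any of the 3 tools on any day, with a median log2 change of 0.00 for D10. An unadjusted p under 0.05 was met for D10 by 0 of them in edgeR and DESeq2, beside 1095 and 1078 of 13798 genes. With the block 1 met it, SOD1, which was lower, beside 2517 genes in either direction. Of all genes, edgeR called 40 for D10, the block 688 and DESeq2 390, so 0 calls among 8 copper genes do not stand apart. The copper importer SLC31A1 (0.39 ± 0.22, edgeR adjusted p = 0.860), the superoxide dismutase SOD1 (-0.40 ± 0.34, 0.998) and the copper chaperone COX17 (0.29 ± 0.35, 0.998) had the smallest p. Of 11 iron genes, all tested, 0 were called by edgeR on any day, 3 had an unadjusted p under 0.05 at D10, beside 7.94% of all genes, and the block called 2 higher and 1 lower at D10, beside 2.54% and 2.45% of all genes.

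The 3 iron genes that the block called at D10 against D0 were all transporters. SLC11A2 (DMT1), a ferrous iron importer, was at 64.1 and 62.5 CPM at D0 and at 119 and 128 CPM at D10, a log2 fold change of 0.96 ± 0.20 (adjusted p = 0.101 in edgeR, 0.00661 with the block and 0.00413 in DESeq2). SLC25A37, the mitochondrial iron importer mitoferrin, was at 33.3 and 55.8 CPM at D0 and 80.1 and 112 CPM at D10 (1.11 ± 0.38, adjusted p = 0.417 in edgeR, 0.00333 with the block, 0.162 in DESeq2). SLC40A1 (ferroportin), the iron exporter, was at 15.7 and 33.3 CPM at D0 and 7.28 and 11.6 CPM at D10 (-1.38 ± 0.40, adjusted p = 0.276 in edgeR, 0.0171 with the block, 0.0753 in DESeq2). Its fall was already called by the block and by DESeq2 at D4 (-1.79 ± 0.41, adjusted p = 0.757 in edgeR, 0.0371 and 0.0333) and at D7 (-2.01 ± 0.41, 0.307, 0.0156 and 0.00301). SLC40A1, like SLC30A1, was higher at D0 in experiment 2 than in experiment 1. Between later days, DESeq2 called SLC11A2 and the ferritin gene FTH1 higher at D10 than at D4, where 0.884% of genes were called higher. It called FTH1 higher at D10 than at D7, where 0.457% were. The block called SLC11A2 but not FTH1 higher at D10 than at D4, beside 1.72%, and edgeR without it called neither. FTH1 was at 1195 and 1364 CPM at D0, 918 and 632 CPM at D4, 780 and 703 CPM at D7, and 1408 and 2318 CPM at D10.

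In bulk RNA a change per cell and a change in which cells contribute cannot be told apart. Beside the D10 values of the members stands the low fibroblast marker sum of D10 replicate 2, whose part in them was not tested. Without that library the D10 log2 fold changes were 2.45 for MT2A, 2.88 for MT1L and 1.98 for MT1E, as large as with it. They were smaller for MT1X (0.93) and SLC39A14 (1.01). That fit set D10 replicate 1 against the D0 libraries of both experiments. Against the D0 library of its own experiment, the changes in experiment 1 were 2.01, 2.51, 1.80, 0.72 and 0.99, in the same order of genes. In experiment 2, which holds the library that stood apart, they were 3.05, 3.14, 1.74, 1.57 and 1.56.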

How the data were processed

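RNA from 8 cultures of IMR90 fibroblasts, 2 independent experiments at each of D0, D4, D7 and D10, was poly(A)-selected and sequenced from stranded libraries. The authors deposited raw read counts per gene for 27696 genes, with a column of RPM values beside each, and only the counts were used. The submitters' processing notes name STAR 2.5, DESeq2 and GRCh38, while the gene annotation, the strand setting and the treatment of reads matching several genes are not given in the sources used here. One column header reads DO and was taken as D0 replicate 1. Of the identifiers, 25886 (93.5%), including all 9 members, are in GENCODE 29 with the same version.

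The 13798 genes kept by filterByExpr were scaled with TMM and fitted by group in edgeR 4.0.16 (glmQLFit, glmQLFTest; R 4.3.3) over all 8 libraries, which totalled 11708193 to 13395912 counts. Calls were made at a Benjamini-Hochberg adjusted p of 0.05 over all 13798 genes. Log2 CPM used a prior count of 2, SEs were taken from the fold change and its F statistic, and the floor was 3 counts per library. Correlations used SciPy 1.17.1. Alternatives were a replicate block, DESeq2 1.42.0, its size factors alone, a fit of just the 2 groups compared, no filter, a minimum of 10 counts per library, a stricter adjusted p of 0.01, and 1 library left out at a time. The script was tested on simulated counts. P-values measure the spread between these libraries, from 2 experiments.

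Replicate numbers mark the 2 independent experiments, and libraries with the same number deviated from their groups in the same way (r across genes from 0.418 to 0.722 in all 6 pairs of groups). Blocking lowered edgeR's common dispersion from 0.0792 to 0.0242. Named genes were the 9 members, from each list the genes called on at least 1 day or else the 3 with the smallest p at D10, and the 5 genes most like MT2A and SLC30A1. Values of the authors' own comparisons were not used. The members and lists were chosen with earlier results of these data known.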

Additional observations from a re-analysis of the deposited data

How the results depend on the processing

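With 2 libraries per group, the number of members called depended on the model more than their fold changes did. Over all genes, D10 against D0 gave 40 calls of 13798 in the main model, 688 with the replicate block and 390 with DESeq2. It gave 371 of 27696 with no filter, 0 of 13365 with the compared groups only, and 2 at an adjusted p under 0.01. The number of members called at D10 against D0 was 1 in the main model and 4 with the replicate block, with DESeq2 and with no filter on low counts. It was 0 with the compared groups only and at an adjusted p under 0.01, settings that called almost no genes at all. Leaving out each library gave 0 to 1. At D7 it was 0, and 3 with the replicate block, DESeq2 or no filter, where 0, 172, 117 and 93 genes were called. At D4 it was 0, and 3 with DESeq2, where 0 and 48 genes were. Between D10 and D4 it was 0, and 1 with the block, DESeq2 or no filter, where 1, 352, 157 and 147 genes were. Between D10 and D7 it was 0, and 1 with DESeq2 or no filter, where 0, 66 and 77 genes were. Leaving out any library gave 0 in those 4 comparisons. DESeq2's size factors and a minimum of 10 counts moved no count of members.

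The reversals were of values near 0 when 1 library was left out, given here as the range over libraries left out. For SLC30A1 the log2 fold change ran from -0.48 (without D0 replicate 1) to 0.56 (without D0 replicate 2) at D4, and by leaving out the same libraries from -0.60 to 0.45 at D7 and from -0.27 to 0.77 at D10. In D10 against D4 it ran from -0.076 (without D4 replicate 1) to 0.58 (without D4 replicate 2). For MTF1 it ran from -0.27 to 0.17 at D4, from -0.029 to 0.40 in D10 against D4 and from -0.048 to 0.081 in D10 against D7. For SLC39A14 it ran from -0.44 to 0.16 at D7, by the D7 libraries, and for MT1E from -0.041 to 0.49 in D10 against D7. The correlation with MT2A reversed for SLC30A1 with the experiment means subtracted (0.10) and without the D0 libraries (0.16), and the latter setting took the call from MT1E (0.53), MT1L (0.93) and MT1X (0.77). The cause was not tested. Summing all metallothionein genes in place of the 5 members moved no summed change by more than the spread between libraries. MT1M and SLC39A8 had too few counts for a fitted change at this depth.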

Other observations

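Lists of metal and oxidative stress genes and of glucocorticoid-responsive genes were counted, and whether they share regulators with the metallothioneins was not tested. Of 12 metal and oxidative stress genes, all tested, edgeR called 0 on any day. An unadjusted p under 0.05 was met at D10 by 3, all lower, beside 7.94% of all genes in either direction. With the block 7 met it, all lower, beside 2517 of 13798 genes in either direction. The block and DESeq2 each called 1 lower at D10, beside 338 and 172 of all genes called lower. At D7 they called 1 and 2 lower, beside 102 and 62. The median log2 fold change of the list at D10 was -0.44, beside 0.00 for all genes. HMOX1, the heme oxygenase induced by many metals and oxidants, was at 23.3 and 27.4 CPM at D0 and 7.52 and 12.4 CPM at D10, opposite in direction to the metallothioneins. Its log2 fold change was -1.35 ± 0.32 (adjusted p = 0.149 in edgeR, 0.0262 with the block, 0.0180 in DESeq2), and at D7 it was -1.54 ± 0.32 (0.310, 0.0408 and 0.0111). NQO1, a quinone reductase and target of NRF2, was at 249 and 302 CPM at D0 and 142 and 195 CPM at D10 (-0.71 ± 0.27, edgeR adjusted p = 0.499), and its D7 log2 fold change was -1.11 ± 0.27 (adjusted p = 0.430 in edgeR, 0.0671 with the block, 0.0391 in DESeq2). OSGIN1 was at 20.8 and 10.8 CPM at D0 and 8.39 and 6.31 CPM at D10 (-1.10 ± 0.46, edgeR adjusted p = 0.591).

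Of 10 glucocorticoid-responsive genes, 9 were tested and 0 were called against D0 on any day by edgeR, by edgeR with the block or by DESeq2, and their median D10 log2 fold change was -0.04. Of all 13798 genes, edgeR called 0, 0 and 40 at D4, D7 and D10, the block 38, 172 and 688, and DESeq2 48, 117 and 390. Beside these, 0 calls among 9 genes do not stand apart. An unadjusted p under 0.05 was met at D10 by 0 of the list in edgeR and DESeq2, beside 1095 and 1078 of all genes. With the block 1 met it, KLF9 (0.55 ± 0.17, adjusted p = 0.123), beside 2517. The block called KLF9 higher in D10 than in D4 (0.93 ± 0.17, adjusted p = 0.0323), as it did 1.72% of all genes. In that comparison edgeR without the block and DESeq2 did not call KLF9. FKBP5 (0.66 ± 0.37, edgeR adjusted p = 0.848), PER1 (0.43 ± 0.35, 0.998) and KLF9 (0.59 ± 0.52, 0.998) had the smallest p.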
